A study of Homo sapiens and Mus musculus with 29 samples.

Results

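LINC03048, LINC00922, LINC02432, ENSG00000255306, ENSG00000232524, ENSG00000238178 and ENSG00000247134 are 7 genes annotated as long noncoding RNAs (lncRNAs), of the 58719 genes in the human expression table, 14744 of which carry that annotation. They were chosen by their RPKM in the tumor groups described here, so every difference between tumor groups is given for them as a description without a test. Whether the metastases also entered the choice is not known, and differences that involve a metastasis are treated in the same way. In short, 3 of them (LINC03048, ENSG00000255306 and ENSG00000232524) were at a low level in tumors of control and FOXA1-OE cells and many times higher in every tumor and metastasis labeled HNF4G-KO. LINC00922 showed the opposite pattern and ENSG00000238178 a weaker form of it. ENSG00000247134 was lower in most libraries labeled HNF4G-KO and lowest in metastases, and LINC02432 overlapped between tumors with and without the label and was at or near 0 in 3 of the 6 metastases.

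The cells were HPAF-II, an established human pancreatic ductal adenocarcinoma (PDAC) line of the classical, gland-like type, injected into the pancreas of young adult NSG mice, which lack functional lymphocytes. By the labels, all groups were CRISPR cells and overexpression was lentiviral. Control cells carried Cas9 and an empty vector (EV), FOXA1-OE cells carried Cas9 and a FOXA1 vector, HNF4G-KO cells carried the HNF4G knockout and EV, and HNF4G-KO + FOXA1-OE cells carried both changes. The knockout cells were a pool of 3 single-cell clones, so that a property of these clones and the loss of HNF4G cannot be told apart. Mice were killed at a humane endpoint, and libraries came from 3 control, 3 FOXA1-OE, 4 HNF4G-KO and 5 HNF4G-KO + FOXA1-OE tumors (1 per mouse, except that HNF4G-KO + FOXA1-OE tumors 2 and 3 shared a mouse), from 2 peritoneal metastases of HNF4G-KO mice, and from 4 metastases of HNF4G-KO + FOXA1-OE mice, of which 1 was from the spleen, 2 from fat and 1 from the peritoneum.

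lncRNAs are transcripts without a long open reading frame that are mostly made by RNA polymerase II, spliced and polyadenylated like mRNAs. Many are expressed in few cell types and at low levels, and some act on the chromatin or the transcription of genes beside them, which is why the protein-coding neighbors are given further on. HNF4G is a nuclear receptor of the HNF4 family and FOXA1 a pioneer factor of the forkhead family, both of which bind enhancers in gut and pancreatic epithelium.

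The transcripts lie on 7 chromosomes. Coordinates are those of GENCODE release 44 on GRCh38. LINC03048 lies at chr17:81375144-81385464 on the minus strand and has 17 annotated transcripts. LINC00922 spans 291850 bases at chr16:65284496-65576345 on the minus strand, and LINC02432 lies at chr4:141302910-141357096, also on the minus strand. The first exon of LINC00922, the member with the clearest loss in tumors labeled HNF4G-KO, lies at chr16:65576239-65576345 and reads as follows from 5′ to 3′.
LINC00922 exon 1: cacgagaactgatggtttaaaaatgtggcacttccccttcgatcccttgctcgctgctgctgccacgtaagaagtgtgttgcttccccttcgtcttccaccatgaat

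ENSG00000255306 and ENSG00000232524 have no name and a single annotated transcript each, so exons of both are shown to let these RNAs be recognized elsewhere. ENSG00000255306 (chr11:68024809-68030461, minus strand) has 4 exons and 739 bases after splicing, which equals the length implied by the steps between its RPKM values. It overlaps the ALDH3B1 locus on the opposite strand without sharing an exonic base with it, and starts 155 bases from the start of NDUFS8, which is transcribed the other way. Its first exon (chr11:68030259-68030461) and last exon (chr11:68024809-68025061) follow, the hexamer AATAAA of polyadenylation in capitals.
ENSG00000255306 exon 1: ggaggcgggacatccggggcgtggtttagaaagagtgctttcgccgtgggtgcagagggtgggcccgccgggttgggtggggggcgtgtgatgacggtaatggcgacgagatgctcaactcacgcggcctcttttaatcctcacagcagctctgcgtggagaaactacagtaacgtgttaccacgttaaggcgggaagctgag
ENSG00000255306 exon 4: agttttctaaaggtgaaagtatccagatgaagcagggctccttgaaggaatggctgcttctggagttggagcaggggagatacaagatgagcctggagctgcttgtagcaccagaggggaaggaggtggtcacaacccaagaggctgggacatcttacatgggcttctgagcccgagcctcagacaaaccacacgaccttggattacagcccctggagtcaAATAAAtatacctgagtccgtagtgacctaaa

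ENSG00000232524 (chr7:123456629-123459856, plus strand) has 3 exons and 451 bases after splicing, again the length implied by its RPKM steps. All 150 bases of its exon 2 lie opposite a coding exon of IQUB, whereas exon 1 (chr7:123456629-123456765) and exon 3 (chr7:123459693-123459856) are shared with no other annotated gene and are shown here. Capitals in exon 3 mark the polyadenylation hexamers AATAAA and ATTAAA.
ENSG00000232524 exon 1: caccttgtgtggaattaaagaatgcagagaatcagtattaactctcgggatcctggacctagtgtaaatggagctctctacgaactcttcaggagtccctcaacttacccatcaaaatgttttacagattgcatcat
ENSG00000232524 exon 3: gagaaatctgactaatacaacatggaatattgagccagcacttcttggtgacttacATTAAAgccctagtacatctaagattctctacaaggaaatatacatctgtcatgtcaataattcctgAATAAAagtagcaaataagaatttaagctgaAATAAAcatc

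LINC03048 was the member with 2 promoters in RefSeq (GRCh38), each taken from 250 bases before to 50 bases after a start site, at chr17:81385333-81385632 and chr17:81385076-81385375 on the minus strand. Matches were sought on both strands to 3 forkhead motifs (TGTTTAC, its variant TATTTAC, and its other variant TGTTTGC), CAAAGTCCA and CAAAGGTCA for HNF4, AGGTCA (a core element of nuclear receptors, which CAAAGGTCA contains) and TGACTCA (AP-1). The second promoter held AGGTCA, shown in capitals, 176 bases before the start site, which 13.8% of 35116 RefSeq promoters of this length also hold. The other 6 motifs, found in between 0.384% and 4.95% of all promoters, were in neither window. ENSG00000255306, ENSG00000232524, ENSG00000238178, ENSG00000247134, LINC00922 and LINC02432 were not matched.
LINC03048 promoter 1: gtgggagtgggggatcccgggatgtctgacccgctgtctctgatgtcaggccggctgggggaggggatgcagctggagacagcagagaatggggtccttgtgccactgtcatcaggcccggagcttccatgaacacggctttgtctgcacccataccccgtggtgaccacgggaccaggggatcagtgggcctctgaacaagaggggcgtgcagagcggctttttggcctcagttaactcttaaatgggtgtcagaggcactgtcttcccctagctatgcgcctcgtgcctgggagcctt
LINC03048 promoter 2: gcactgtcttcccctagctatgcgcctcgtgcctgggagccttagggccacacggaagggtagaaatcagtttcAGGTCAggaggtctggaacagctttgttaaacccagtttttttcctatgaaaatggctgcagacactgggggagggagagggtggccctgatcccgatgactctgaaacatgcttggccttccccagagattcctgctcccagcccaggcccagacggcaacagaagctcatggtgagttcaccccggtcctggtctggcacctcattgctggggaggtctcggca

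ENSG00000238178 (chrX:16152941-16170869, minus strand) runs antisense to GRPR, sharing 426 exonic positions, and to MAGEB17, sharing 539. ENSG00000247134 lies at chr8:32927913-33045445 on the plus strand. In their canonical transcripts the members had 3 to 8 exons and 451 to 3104 bases after splicing, where the median of 18866 canonical lncRNA transcripts was 2 exons and 801 bases. The longest open reading frame was 107 codons, in LINC03048, and 57 to 96 codons in the other members, against a median of 60 codons. The hexamer AATAAA or ATTAAA lay within the last 50 bases of 5 members, but not of LINC03048 or ENSG00000247134, and of 46.1% of all these transcripts. All members thus had more exons than the median lncRNA but no common length or base composition, with a GC content of 40.8% to 55.5% (median of all 46.4%).

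The deposited unit is RPKM, the reads of a gene per kilobase of its length, scaled to all reads counted in the library. Depth, worked out from the smallest steps between values, was 33.1 to 69.6 M reads per library (median 54.5 M), with group medians from 43.9 M in FOXA1-OE tumors to 63.9 M in HNF4G-KO + FOXA1-OE metastases. All 15 markers of pancreatic cancer epithelium averaged at least 1 RPKM in every group. Their summed RPKM was 6010 to 7450 in HNF4G-KO against 4510 to 5750 in control tumors, without overlap, and 5590 to 8820 in HNF4G-KO + FOXA1-OE against 4480 to 5850 in FOXA1-OE tumors. Its part in the differences between these groups was not tested. Of 12 stromal markers, 7 to 9 averaged at least 1 RPKM in a group, with a summed RPKM of 57.2 to 79.6 in HNF4G-KO tumors and 67.6 to 210 in control tumors, and these reads can come from mouse cells. The summed RPKM of 11 markers of host pancreas was 473 in control tumor 2 but 12.5 and 5.75 in control tumors 1 and 3. In HNF4G-KO tumors this sum was 1.92 to 11, and its part in the differences was not tested. In bulk samples, fewer cells of a type and less RNA per cell cannot be told apart. HNF4G RNA was at 2.48 to 3.47 RPKM in control tumors and 5.72 to 8.42 RPKM in HNF4G-KO tumors, against the label. The study describes frameshift mutations, which may leave an mRNA in place, and the cause of the higher level was not tested. FOXA1 RNA was at 6.32 and 8.18 RPKM in FOXA1-OE tumors 1 and 2 but at 0.763 RPKM in FOXA1-OE tumor 3, within the control range of 0.519 to 0.932. HNF4G-KO + FOXA1-OE tumors had 4.65 to 23.1 RPKM and metastasis 2 of that genotype 17.9 RPKM. Its metastases 1, 3 and 4 had only 0.535, 1.3 and 1.55 RPKM, in or below the range of HNF4G-KO tumors (1.26 to 1.87). Directions follow the labels, and the members' differences from FOXA1-OE are also given without FOXA1-OE tumor 3.

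**Figure D1:**
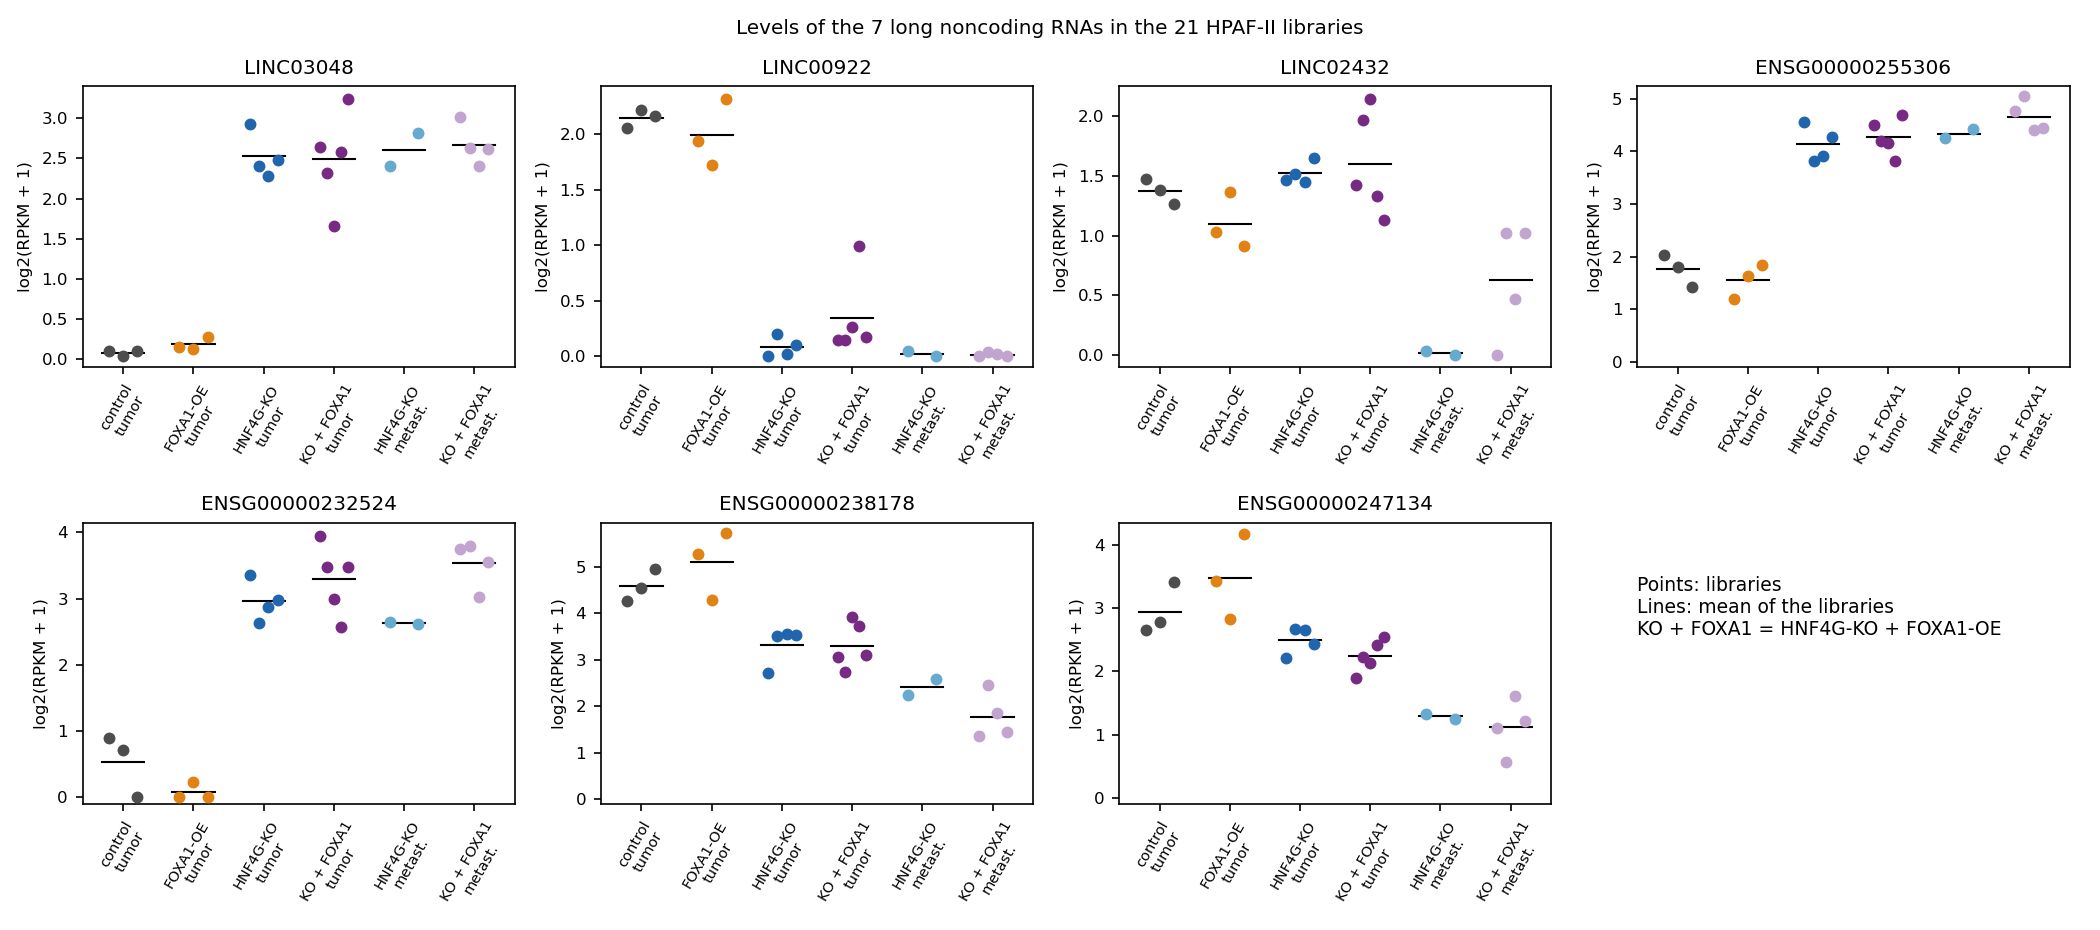
RPKM of the 7 lncRNAs in each HPAF-II library, with 1 panel per gene and 1 point per library, on a vertical axis of log2(RPKM + 1). Horizontal lines are group means on that scale. LINC03048, ENSG00000255306 and ENSG00000232524 were high in every library labeled HNF4G-KO (at least 2.16, 13.0 and 4.96 RPKM), LINC00922 was at most 0.989 RPKM there, and LINC02432 dropped to 0.0265 RPKM or below in 3 metastases.

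The RPKM of LINC03048 was 0.069, 0.0279 and 0.0796 in control and 0.112, 0.0958 and 0.211 in FOXA1-OE tumors. It was 6.61, 4.32, 3.87 and 4.57 in tumors labeled HNF4G-KO, and in HNF4G-KO + FOXA1-OE tumors at 5.21, 4.00, 2.16, 4.98 and 8.46 RPKM. Every tumor with the HNF4G-KO label was thus above every tumor without it, and the ratio of the 2 means was 49.5. On the scale of log2(RPKM + 1), which understates changes of low values, the difference between HNF4G-KO and control was 2.44 (SE 0.23), the highest of the 1244 lncRNAs, and 10th of the 14269 genes, that averaged 1 RPKM or more over the tumors and so passed the RPKM filter. Between HNF4G-KO and control tumors, the ranges of 5 of the 7 members did not overlap, a count that follows from how the members were chosen. The same held for 46.4% of the 14269 genes, of which limma called 12.2%.

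ENSG00000255306 was the most abundant of the 3. Its RPKM was 3.12, 2.5 and 1.7 in control tumors and 1.29, 2.12 and 2.6 in FOXA1-OE tumors. It was 22.6, 13.0, 14.1 and 18.5 in tumors labeled HNF4G-KO, and 21.8, 17.3, 16.8, 13.0 and 25.0 in HNF4G-KO + FOXA1-OE tumors. The groups with and without the label did not overlap, with a ratio of means of 8.11 and a log2 difference between HNF4G-KO and control of 2.38 (SE 0.25). Unlike LINC03048, this RNA was measurable in every control tumor.

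ENSG00000232524 came close to an off and on pattern. Control tumors had 0.858, 0.631 and 0 RPKM, and FOXA1-OE tumors 0, 0.173 and 0 RPKM, where a value of 0 allows up to 0.135 to 0.168 RPKM if 3 reads are taken as the limit. In tumors labeled HNF4G-KO it was at 9.18, 5.20, 6.30 and 6.91 RPKM, and in HNF4G-KO + FOXA1-OE tumors at 14.5, 10.1, 6.95, 4.96 and 10.2 RPKM. All tumors with the label were above all without it, with a ratio of means of 29.8 and a log2 difference between HNF4G-KO and control of 2.43 (SE 0.29). IQUB, the gene on the other strand, stayed at or under 0.476 RPKM in all libraries (0.0773 to 0.170 in control tumors and 0.343 to 0.394 in tumors labeled HNF4G-KO). If the counting ignored strand, reads of the shared exon cannot be told apart.

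Control tumors had 3.17, 3.65 and 3.49 RPKM of LINC00922, and FOXA1-OE tumors had 2.84, 2.29 and 4.01 RPKM. Tumors labeled HNF4G-KO had 0, 0.147, 0.0156 and 0.0746 RPKM, where the value of 0 allows up to 0.0272 RPKM and 0.0156 stands for 2 reads. HNF4G-KO + FOXA1-OE tumors had 0.111, 0.113, 0.201, 0.989 and 0.123 RPKM. The groups did not overlap, the mean without the label was 16.4 times that with it, and the log2 difference between HNF4G-KO and control was -2.07 (SE 0.21), the lowest of all 1244 lncRNAs. HNF4G-KO + FOXA1-OE tumor 4 stood apart from the rest of its group with 73 reads. Without it, the difference between HNF4G-KO + FOXA1-OE and HNF4G-KO moved from 0.30 to 0.10.

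ENSG00000238178 was at 18.3, 22.4 and 29.8 RPKM in control tumors, 37.9, 18.5 and 52.6 RPKM in FOXA1-OE tumors, 5.52, 10.4, 10.7 and 10.6 RPKM in tumors labeled HNF4G-KO and 7.34, 5.70, 14.2, 12.2 and 7.60 RPKM in HNF4G-KO + FOXA1-OE tumors. All tumors with the label were below all without it, by a ratio of means of 3.2 (2.71 without FOXA1-OE tumor 3), and the log2 difference between HNF4G-KO and control was -1.26 (SE 0.32). ENSG00000247134 was at 5.33, 5.88 and 9.62 RPKM in control, 9.77, 6.13 and 17.1 RPKM in FOXA1-OE, 3.63, 5.36, 5.31 and 4.44 RPKM in HNF4G-KO and 2.74, 3.68, 3.37, 4.37 and 4.80 RPKM in HNF4G-KO + FOXA1-OE tumors. Here HNF4G-KO tumor 2 reached into the control range, and the log2 difference was -0.46 (SE 0.28). Both RNAs were highest in FOXA1-OE tumor 3, the library without an excess of FOXA1 RNA, so that the FOXA1-OE to control difference of 0.52 and 0.53 became 0.19 and 0.18 without it.

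LINC02432 did not separate tumors with the HNF4G-KO label from those without it. Its RPKM was 1.78, 1.60 and 1.40 in control, 1.04, 1.57 and 0.877 in FOXA1-OE, 1.76, 1.85, 1.74 and 2.13 in HNF4G-KO and 1.68, 2.90, 3.42, 1.52 and 1.19 in HNF4G-KO + FOXA1-OE tumors. HNF4G-KO tumors overlapped with control but lay above all FOXA1-OE tumors, and the log2 difference between HNF4G-KO and control was 0.15 (SE 0.19).

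As RPKM is per length, the members can also be ordered by level. In control tumors ENSG00000238178 was the highest (23.5 ± 5.83 RPKM, SD, n = 3), followed by ENSG00000247134 (6.95 ± 2.33), LINC00922 (3.44 ± 0.244), ENSG00000255306 (2.44 ± 0.71), LINC02432 (1.59 ± 0.188), ENSG00000232524 (0.496 ± 0.445) and LINC03048 (0.0588 ± 0.0273). In tumors labeled HNF4G-KO, ENSG00000255306 came first (17.0 ± 4.40 RPKM, SD, n = 4), then ENSG00000238178 (9.31 ± 2.53), ENSG00000232524 (6.90 ± 1.68), LINC03048 (4.84 ± 1.22), ENSG00000247134 (4.69 ± 0.818), LINC02432 (1.87 ± 0.181) and LINC00922 (0.0592 ± 0.0665). In the latter group the adjacent LINC03048 and ENSG00000247134 did not differ beyond their spread, and ENSG00000232524 overlapped with both. LINC00922 went from the third place to the last and LINC03048 from the last to the fourth.

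For 5 of the members the difference between FOXA1-OE and control was smaller in size than that between HNF4G-KO and control. The exceptions were ENSG00000247134 (0.53 against -0.46) and LINC02432 (-0.27 against 0.15). Between FOXA1-OE and control tumors the 7 log2 differences ranged from -0.46 (ENSG00000232524) to 0.53 (ENSG00000247134), and from -0.42 to 0.19 without FOXA1-OE tumor 3. Between HNF4G-KO + FOXA1-OE and HNF4G-KO tumors they ranged from -0.24 (ENSG00000247134) to 0.35 (ENSG00000232524). The comparisons of HNF4G-KO + FOXA1-OE with FOXA1-OE, which share no tumor with that of HNF4G-KO against control, gave 2.43 for LINC03048, 2.74 for ENSG00000255306, 3.23 for ENSG00000232524, -1.61 for LINC00922, -1.80 for ENSG00000238178, -1.22 for ENSG00000247134 and 0.38 for LINC02432. Without FOXA1-OE tumor 3 they were 2.47, 2.88, 3.19, -1.45, -1.48, -0.87 and 0.29 in the same order. Both sets of tumors carry cells labeled HNF4G-KO, and these tumors also entered the choice of the members.

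In the metastases, the pattern of the label was kept. LINC03048 was at 4.27 and 6.08 RPKM in metastases labeled HNF4G-KO and at 7.03, 5.18, 4.26 and 5.13 RPKM in those of HNF4G-KO + FOXA1-OE mice. ENSG00000255306 was at 18.0 and 20.4 and at 26.2, 32.2, 20.1 and 20.7 RPKM, and ENSG00000232524 at 5.29 and 5.10 and at 12.5, 12.8, 7.16 and 10.7 RPKM. These values lay in or above the range of the tumors with the label. LINC00922 was at 0.0317 and 0 and at 0, 0.0275, 0.0144 and 0 RPKM. The metastasis of the mouse that carried HNF4G-KO + FOXA1-OE tumor 4 had no read of it, which allows up to 0.0215 RPKM, whereas that tumor had 0.989 RPKM. No control or FOXA1-OE mouse has a metastasis among the samples used here, so the label could not be compared within metastases.

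The other 3 members were lower in metastases than in tumors. LINC02432 was at 0.0265 and 0 RPKM in the HNF4G-KO metastases (the former 6 reads, the latter allowing up to 0.0196 RPKM), at 0 RPKM in the spleen metastasis of the HNF4G-KO + FOXA1-OE mice, which allows up to 0.0131 RPKM, and at 1.02, 0.386 and 1.03 RPKM in the metastases in fat, fat and peritoneum. All 6 were below every tumor of their genotype. The log2 difference to the tumors was -1.50 in HNF4G-KO and -0.82 in HNF4G-KO + FOXA1-OE mice. ENSG00000238178 was at 3.73 and 5.07 and at 1.56, 4.54, 2.6 and 1.71 RPKM (differences -0.90 and -1.57), and ENSG00000247134 at 1.52 and 1.37 and at 1.16, 0.470, 2.05 and 1.31 RPKM (differences -1.21 and -1.04). Neither overlapped with the tumors of its genotype. The share of all genes whose metastases and tumors do not overlap was not counted, so these separations are descriptions only. Summed stromal markers were 82.4 to 434 RPKM in HNF4G-KO metastases and 83.5 to 226 in HNF4G-KO + FOXA1-OE metastases, against 57.2 to 79.6 and 57.9 to 128 in their tumors, while the sums of the 15 epithelial markers overlapped. The summed RPKM of 11 markers of host pancreas was also lower in HNF4G-KO metastases (0.544 and 0.927) than in HNF4G-KO tumors (1.92 to 11). In HNF4G-KO + FOXA1-OE mice it was 0.587 to 0.851 in metastases and 0.506 to 31.7 in tumors, where HNF4G-KO + FOXA1-OE tumor 3 was below every metastasis and the other tumors were above. Of the 11, 0 averaged 1 RPKM in the metastases, and CPB1 and INS were at 0 in all 6. The part of these markers in the differences was not tested.

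Tumor and metastasis could be compared within a mouse in 5 pairs from 4 mice, of which the spleen and the first fat metastasis share a tumor. LINC02432, ENSG00000238178 and ENSG00000247134 were lower in the metastasis in 5 of 5 pairs, by log2 differences of -0.31 to -1.65, -0.59 to -2.28 and -0.79 to -1.35. ENSG00000255306 was higher in 5 of 5, by 0.14 to 0.63. LINC03048 ranged from -0.01 to 0.37 and ENSG00000232524 from -0.38 to 0.97, with no common direction. LINC00922 was lower in 5 of 5 but its tumors had almost nothing to lose, apart from HNF4G-KO + FOXA1-OE tumor 4 (-0.99). The share of all genes that moved in the same direction in all 5 pairs was not counted, so these counts are descriptions only.

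**Figure D2:**
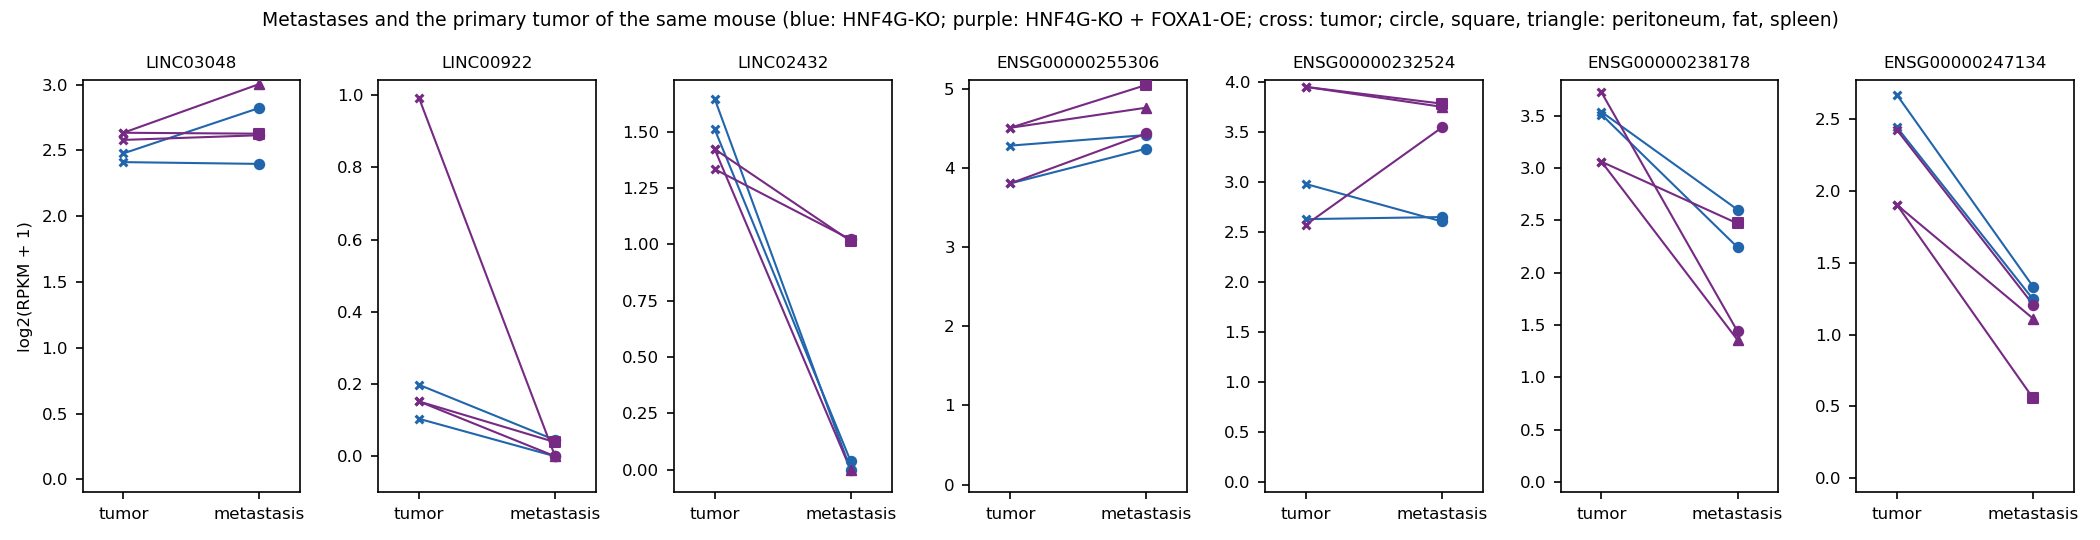
Level of each lncRNA in the tumor (left) and the metastasis (right) of the same mouse, on an axis of log2(RPKM + 1), with 1 line per pair, the color for the genotype and the right-hand marker for the site. The lines of LINC02432, ENSG00000238178 and ENSG00000247134 run down in all 5 pairs, those of ENSG00000255306 run up by 0.14 to 0.63, and the LINC00922 line of HNF4G-KO + FOXA1-OE tumor 4 falls from 0.989 RPKM to 0.

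The metastases of the 2 genotypes can also be set side by side, again without a test. With HNF4G-KO metastases as the reference, the log2 difference of LINC02432 was 0.65 (SE 0.25), and 0.82 without the spleen metastasis. It was 0.82 (SE 0.34) for ENSG00000232524 and -0.69 (SE 0.28) for ENSG00000238178. The differences of LINC03048 (0.00), ENSG00000255306 (0.25) and ENSG00000247134 (-0.07) were smaller, and that of LINC03048 took either sign over the alternatives (-0.21 to 0.21), as did that of ENSG00000247134 (-0.27 to 0.12). LINC00922 was below the RPKM filter. The metastases came from 2 and 3 mice. FOXA1 RNA was at 0.362 and 0.602 RPKM in HNF4G-KO metastases and at 0.535, 1.3 and 1.55 RPKM in HNF4G-KO + FOXA1-OE metastases 1, 3 and 4. Only HNF4G-KO + FOXA1-OE metastasis 2 (17.9 RPKM) reached the range of the tumors of its genotype (4.65 to 23.1 RPKM).

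Over the 21 libraries 6 of the 7 members fell into 2 sets that moved against each other. The 3 RNAs with high levels under the label correlated with one another at r = 0.94 to 0.98 on log2(RPKM + 1), and each correlated negatively with LINC00922 (-0.94 to -0.96). ENSG00000238178 and ENSG00000247134 correlated at r = 0.90 with each other and at 0.85 and 0.76 with LINC00922, and LINC02432 correlated with no other member beyond 0.42. The members were chosen by their levels in these tumor groups, and group differences were left in, so the 2 opposed sets follow at least in part from that choice. These correlations also describe libraries that share cells, clones and in part mice, and are given without a p-value. Among the 14229 genes that averaged 1 RPKM or more, those most like LINC03048 were ENSG00000255306 (0.96), MYO1A (0.95), a myosin of the intestinal brush border, and SEMA4G (0.95), a semaphorin. MYO1A was at 4.10 to 8.46 RPKM in control and 18.5 to 33.1 RPKM in HNF4G-KO tumors. The most like ENSG00000255306 were ENSG00000232524 (0.98), MYO1A (0.97) and LINC03048 (0.96), and the most like ENSG00000232524 were ENSG00000255306 (0.98), RBP4 (0.97), the carrier of retinol in blood, and MYO1A (0.96). RBP4 was at 6.92 to 8.06 RPKM in control and at 35.9 to 52.6 RPKM in HNF4G-KO tumors.

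The genes most like LINC00922 were CSAG1 (r = 0.99) and MAGEA12 (0.98), cancer-testis genes that lie next to each other on chromosome X and belong to families of near-identical copies among which reads may be split, and NDP (0.97), which encodes norrin, a ligand of the Wnt pathway. Control tumors had 15.5 to 19.4 RPKM of CSAG1, 6.11 to 6.52 of MAGEA12 and 3.55 to 3.78 of NDP. In HNF4G-KO + FOXA1-OE tumor 4, the library in which LINC00922 was at 0.989 RPKM, they were at 5.39, 2.32 and 1.50 RPKM. All 3 thus lay between the control tumors and the other libraries labeled HNF4G-KO, in which CSAG1 was at most 0.185, MAGEA12 at most 0.245 and NDP at most 0.669 RPKM. The 3 genes were picked by their correlation with LINC00922 over libraries that include this tumor, so the likeness follows at least in part from that choice.

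LINC02432 was most like CXCL5 (r = 0.87), a chemokine that attracts neutrophils, QRFPR (0.85), a neuropeptide receptor, and UBE2E2 (0.83), an E2 enzyme of ubiquitin transfer. CXCL5 was at 0.0914 and 0.0963 RPKM and QRFPR at 0 in the 2 HNF4G-KO metastases, and in the spleen metastasis they were at 0.142 and 0 RPKM. These are the 3 libraries in which LINC02432 was at or near 0. In the other 3 metastases CXCL5 was at 1.12 to 4.16 RPKM and QRFPR at 0.223 to 2.15 RPKM. CXCL5 and QRFPR were picked by their correlation with LINC02432 over these same libraries, so this likeness follows at least in part from that choice. ENSG00000238178 was most like NR2F1-AS1 (0.93), another lncRNA, SNRPN (0.92), an imprinted gene, and KCNMB4 (0.91), a potassium channel subunit. ENSG00000247134 was most like the lncRNA LINC00326 (0.93), RBPJ (0.90), the DNA-binding partner of Notch, and ENSG00000238178 (0.90).

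**Figure D3:**
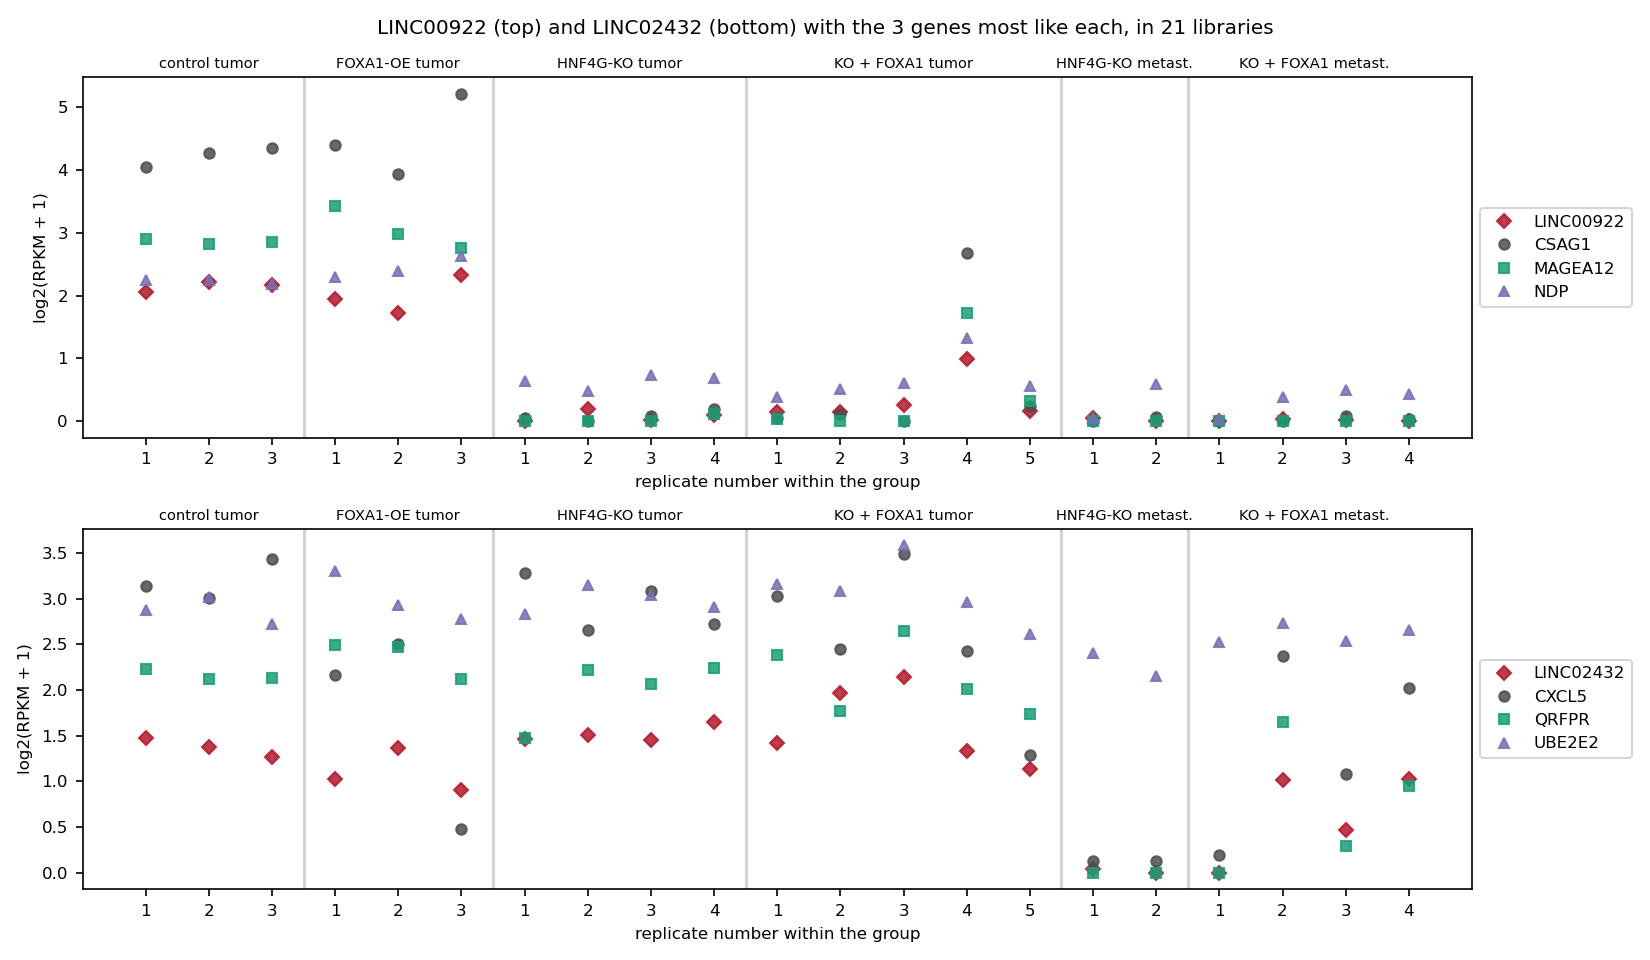
Level of LINC00922 and of LINC02432 in each of the 21 libraries beside the 3 genes most like each, on an axis of log2(RPKM + 1). The genes were picked by their correlation over these same libraries. In HNF4G-KO + FOXA1-OE tumor 4, LINC00922 (0.989 RPKM), CSAG1 (5.39), MAGEA12 (2.32) and NDP (1.50) stand above the other libraries labeled HNF4G-KO, and LINC02432, CXCL5 and QRFPR are at or near 0 in both HNF4G-KO metastases and the spleen metastasis.

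The protein-coding genes that overlap a member or lie within 500 kb of it, or the nearest ones where none lies so close, were 71 genes, of which 70 were in the table and 46 had enough RPKM to be tested. Between HNF4G-KO and control tumors, 6 of the 46 (13.0%) passed the limma test at an adjusted p under 0.05, with 5 higher and 1 lower in HNF4G-KO. Over all genes, 1736 of 14269 (12.2%) passed, so neighbors of the members were called at about the rate of the background. Without control tumor 2 or without control tumor 3, 0 neighbors were called, while over all genes 284 of 14222 and 538 of 14284 were. The median log2 difference of the neighbors was -0.06, against 0.015 over all genes.

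Of these 6, ALDH3B1, which oxidizes aldehydes from lipids and has ENSG00000255306 on its other strand, was at 10.9, 10.7 and 8.68 RPKM in control and at 23.8, 16.3, 19.3 and 22.1 RPKM in HNF4G-KO tumors. The groups did not overlap, and it rose by 0.94 (SE 0.23, limma adjusted p = 0.0221, 0.00229 to 0.0913 over the alternatives). ALDH3B2, a relative of ALDH3B1 343584 bases from the member, was at 1.00 to 1.70 RPKM in control and at 2.46 to 3.02 RPKM in HNF4G-KO tumors (0.73, limma adjusted p = 0.017, 0.00372 to 0.0862 over the alternatives). PPP6R3, a regulatory subunit of protein phosphatase 6, 430269 bases away, was at 14.8 to 17.7 and 24.5 to 27.4 RPKM (0.69, limma adjusted p = 0.0192). NDUFS8, a subunit of mitochondrial complex I and the nearest start site to that of ENSG00000255306, was at 18.8, 22.5 and 24.8 RPKM in control and at 16.2, 11.3, 14.9 and 14.7 RPKM in HNF4G-KO tumors (-0.60, SE 0.28, limma adjusted p = 0.173). UNC93B1, which carries Toll-like receptors to endosomes, differed by 0.07 (adjusted p = 0.887). Around ENSG00000255306, 3 of 14 tested neighbors therefore passed the test, all higher.

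Near LINC03048, 1 of 21 tested neighbors passed. AATK, a kinase gene 208922 bases away, was at 0.689, 0.457 and 0.358 RPKM in control and at 2.19, 1.68, 1.12 and 1.55 RPKM in HNF4G-KO tumors, a rise of 0.80 (SE 0.24, limma adjusted p = 0.044), and that call held in 4 of 13 alternatives. The nearest genes were BAHCC1, 9992 bases away and below the filter (1.09 to 1.29 RPKM in control and 0.712 to 1.17 in HNF4G-KO tumors), and SLC38A10, an amino acid transporter (0.35, adjusted p = 0.289). Near ENSG00000232524, WASL, which promotes branching of actin filaments and lies 222086 bases away, rose by 0.92 (SE 0.20, limma adjusted p = 0.0144) and was at 13.0 to 15.2 RPKM in control and 23.3 to 31.0 RPKM in HNF4G-KO tumors. NDUFA5, another complex I subunit and 77140 bases away, differed by 0.67 (adjusted p = 0.0539), and SLC13A1 had at most 0.013 RPKM in any library.

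The genes that overlap ENSG00000238178 on the other strand did not pass the test. MAGEB17, a MAGE family gene, was at 3.74, 3.23 and 3.83 RPKM in control and at 1.61, 2.04, 2.48 and 2.84 RPKM in HNF4G-KO tumors (-0.52, SE 0.26, limma adjusted p = 0.195). GRPR, the receptor of gastrin-releasing peptide, was at 5.88, 5.27 and 3.63 and at 2.84, 6.0, 6.17 and 7.74 RPKM (0.13, adjusted p = 0.823). Both share exonic positions with ENSG00000238178, and if the counting ignored strand, reads of these positions cannot be told apart. Among the genes farther away, ZRSR2, a factor of the minor spliceosome 322246 bases from it, fell by 0.64 (SE 0.15, limma adjusted p = 0.0168). CTPS2, a CTP synthase, differed by -0.45 (adjusted p = 0.0587) and AP1S2, a clathrin adaptor subunit, by -0.48 (adjusted p = 0.218).

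Near LINC00922, CDH11, a cadherin of mesenchymal cells 158383 bases away, was at 2.25, 2.65 and 0.791 RPKM in control and at 1.21, 1.46, 1.05 and 0.945 RPKM in HNF4G-KO tumors (-0.36, limma adjusted p = 0.384), and CDH5, the endothelial cadherin 790344 bases away, had at most 0.161 RPKM. Near LINC02432, ZNF330 and the cytokine gene IL15 differed by 0.13 (adjusted p = 0.795) and 0.11 (adjusted p = 0.615), and IL15 kept to 0.858 to 1.60 RPKM in all libraries, the 3 metastases without LINC02432 included. Near ENSG00000247134, NRG1, a ligand of ERBB receptors 72246 bases away, had at most 0.0842 RPKM and FUT10, a fucosyltransferase, at most 0.818 RPKM. The 1 tested neighbor of this member, MAK16, differed by 0.01 (adjusted p = 0.977). None of the nearest genes of these 3 members thus passed the test in this comparison.

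**Figure D4:**
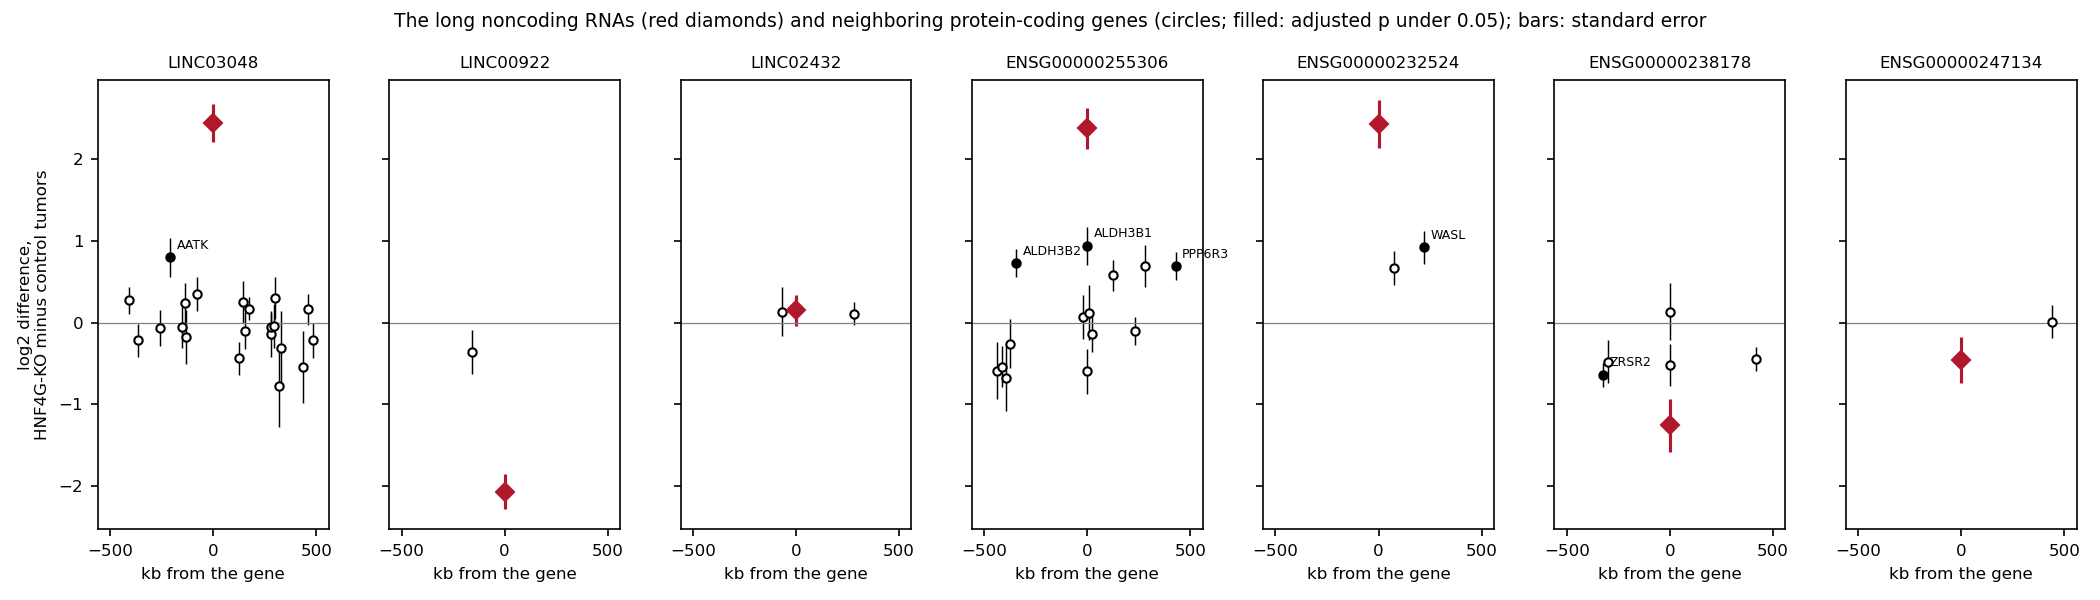
Log2 difference between HNF4G-KO and control tumors of every tested protein-coding neighbor against its distance from the member in kb, with 1 panel per member, bars for the standard error and the member itself as a red diamond at 0. Filled circles mark an adjusted p under 0.05 in limma. The 6 filled circles are AATK, ALDH3B1, ALDH3B2, PPP6R3, WASL and ZRSR2, and apart from ALDH3B1, which overlaps ENSG00000255306, they lie more than 200 kb from the member.

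In the other tumor comparisons few neighbors were called. Between HNF4G-KO + FOXA1-OE and control, 3 of 46 passed (6.52%, against 4.7% of all genes), ALDH3B1 (0.93, limma adjusted p = 0.0367), ALDH3B2 (0.76, adjusted p = 0.0215) and AATK (1.05, adjusted p = 0.0242), and all were higher. Over 13 alternatives, the call held in 4 for ALDH3B1, in 8 for ALDH3B2 and in 5 for AATK. This comparison shares the control tumors with the one above, and 0 were called without control tumor 2 or 3 or HNF4G-KO + FOXA1-OE tumor 1. Over all genes, 210 of 14222, 133 of 14284 and 366 of 14306 were called in these 3 fits. Between HNF4G-KO + FOXA1-OE and FOXA1-OE, 5 of 46 passed (10.9%, against 7.86% of all genes), and 6 did without FOXA1-OE tumor 3. AATK was at 0.114 to 0.289 RPKM in FOXA1-OE and at 0.470 to 3.18 RPKM in HNF4G-KO + FOXA1-OE tumors (1.33, limma adjusted p = 0.00493), and ALDH3B2 rose by 0.73 (adjusted p = 0.0179). The 3 that fell, ZRSR2 (-0.68, adjusted p = 0.0131), CTPS2 (-0.66, adjusted p = 0.0146) and AP1S2 (-0.97, adjusted p = 0.0347), all lie between 298009 and 417129 bases from ENSG00000238178, where 3 of 5 tested neighbors passed. Over 13 alternatives, the calls of ZRSR2 and CTPS2 held in 11 each and that of AP1S2 in 6.

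With FOXA1-OE against control, 0 of 46 neighbors were called in limma (0 at an unadjusted p under 0.05), as were 0% of all genes, of which 652 had an unadjusted p under 0.05. With HNF4G-KO + FOXA1-OE against HNF4G-KO, 0 were called (10 at an unadjusted p under 0.05; 0.0561% of all genes were called), and for the difference between the FOXA1-OE effects with and without HNF4G, also 0 (1 at an unadjusted p under 0.05; 0.035% of all genes). Metastases against tumors gave 0 called neighbors in HNF4G-KO mice (4 at an unadjusted p under 0.05; 0.0426% of all genes) and 0 in HNF4G-KO + FOXA1-OE mice (3; 0.00709%). The metastases of the 2 genotypes gave 0 (2; 0%).

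As a group, lncRNAs above the RPKM filter were called in 111 of 1244 cases (8.92%) between HNF4G-KO and control, with 67 higher and 44 lower, beside 1309 of 11055 protein-coding genes (11.8%). Of a list of 34 well-known lncRNAs, 32 were in the table and 23 were tested, and 5 passed, with 3 higher and 2 lower. The list was made with earlier results of these data known, so its share cannot be set against that of all lncRNAs. UCA1, studied in bladder cancer, was at 76.3 to 113 RPKM in control and 168 to 223 RPKM in HNF4G-KO tumors (1.05, limma adjusted p = 0.0233). MIR31HG, the host gene of a microRNA, rose by 0.92 (adjusted p = 0.0129) and HOTAIR, transcribed from the HOXC cluster, by 0.56 (adjusted p = 0.0326). CYTOR fell by 1.27 (adjusted p = 0.0313) and ELFN1-AS1 by 1.35 (adjusted p = 0.0247). ENSG00000255306, at 13.0 to 22.6 RPKM, was thus near MIR31HG (13.9 to 17.4 RPKM) in HNF4G-KO tumors and far below UCA1.

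Genes of the same list were also called in HNF4G-KO + FOXA1-OE tumors, where 4.7% of all genes were called against control and 7.86% against FOXA1-OE. Against control, LINC01133 was at 0.431 to 2.91 RPKM in control and 1.83 to 15.0 RPKM in HNF4G-KO + FOXA1-OE tumors (2.13, limma adjusted p = 0.0133), and UCA1 (1.03, adjusted p = 0.0407) and NEAT1 (1.00, adjusted p = 0.0449), the scaffold of nuclear paraspeckles, rose as well. Against FOXA1-OE, LINC01133 (2.73, adjusted p = 0.00242), UCA1 (0.99, adjusted p = 0.0356) and NEAT1 (0.91, adjusted p = 0.0498) rose, and EPB41L4A-AS1 fell by 0.98 (adjusted p = 0.0478). Without FOXA1-OE tumor 3 the call of EPB41L4A-AS1 was lost (-0.78, limma adjusted p = 0.138), while LINC01133 (adjusted p = 0.00546), UCA1 (adjusted p = 0.0269) and NEAT1 (adjusted p = 0.0373) still passed. The other comparisons of tumors and metastases gave 0 called in limma, with 0 (FOXA1-OE against control) to 7 at an unadjusted p under 0.05.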

How the data were processed

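RNA-seq libraries of 21 HPAF-II tumors and metastases were used; the KPC mouse lines of the series were not used here, and 12 columns of their table belong to no sample. Per the labels, the authors prepared stranded mRNA libraries and ran STAR 2.6.1a and featureCounts 2.0.4 (GRCh38), while the methods of the study name GRCh37; whether strand was used in counting is not given in the sources used here. The deposited values are RPKM. Depth was recovered from the RPKM steps of 1500 low genes, 93.3% of which had a step of 1 read. Coordinates are from GENCODE 44, in which 58250 of 58719 gene IDs were found when versions were ignored (34590 with the same version). The members and gene lists were chosen with earlier results of these data known.

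Values were transformed to log2(RPKM + 1), genes averaging 1 RPKM or more in a fit were kept, and limma 3.58.1 in R 4.3.3 (lmFit, eBayes with a trend) was fitted to the 4 groups of tumors, and separately to tumors and metastases of the 2 genotypes with metastases, with Benjamini-Hochberg adjustment over all genes tested and a threshold of 0.05. Tumors, or metastases, that shared a mouse were averaged. Other steps used numpy 2.4.6, matplotlib 3.10.9 and pandas 2.3.3 under Python 3.11.15, and the test was tried on simulated data. Named are the 7 members, their nearest, overlapping and called protein-coding neighbors within 500 kb, the 3 genes of highest Pearson correlation with each, HNF4G and FOXA1, and called genes of the known lncRNA list, 1 of which is not reported here; MAK16 was named after its values were seen. Besides the epithelial and stromal markers, lists for host pancreas, fat and blood had summed RPKM of up to 473 (in control tumor 2), 55.0 and 749 in a library. A planned test of the members between metastases is not reported, since their choice may have used these values. Limits for values of 0 (3 reads) cover counting error only. Of 147 member values, 88 stood for an even number of reads. Whether both ends of a fragment were counted separately was not tested, and if so these limits are too low.

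Tumor numbers did not pair samples (19 same-number pairs, correlations of -0.53 to 0.50, 7 over 0.1); tumors and metastases of the same mouse did, by animal (consensus correlation 0.342). Alternatives were no RPKM filter, a pseudocount of 0.1, a common median, samples of a mouse kept separate, fits of only the groups compared, the tumor number or the mouse as a block, no spleen metastasis and a window of 1000 kb. In addition, each mouse of a group was left out in turn, with all its libraries in that group.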

Additional observations from a re-analysis of the deposited data

Results flagged for a closer look

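Of 78 combinations of a gene (members, targeted genes, and nearest or called neighbors above the filter) and a group of 4 or 5 libraries, 4 held a library far from the others by Dixon's criterion, where chance gives about 1 in 20. LINC00922 was at 0.989 RPKM in HNF4G-KO + FOXA1-OE tumor 4 and at 0.111 to 0.201 RPKM in the other tumors of that group. ENSG00000238178 was at 5.52 RPKM in HNF4G-KO tumor 1, below the 10.4 to 10.7 RPKM of the other 3. FOXA1 RNA was at 1.87 RPKM in HNF4G-KO tumor 4, above 1.26 to 1.36 in the others, and at 17.9 RPKM in HNF4G-KO + FOXA1-OE metastasis 2, in fat, above 0.535 to 1.55 RPKM in the other metastases of that group. Tumors of that genotype had 4.65 to 23.1 RPKM, so it was the other metastases that lay outside the tumor range.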

How the results depend on the processing

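The count of called neighbors between HNF4G-KO and control (6) was 18 with only the groups compared in the fit, 12 with a window of 1000 kb, which holds more genes, and 0 to 5 when a mouse was left out (0 without control tumor 2 or 3, and 2 without HNF4G-KO tumor 3). Over all genes, 5595 of 14088 were called with only the groups compared. Without control tumor 2 it was 284 of 14222 genes, and without control tumor 3 it was 538 of 14284. Between HNF4G-KO + FOXA1-OE and control (3), the count of neighbors was 1 without the RPKM filter, 0 with only the groups compared, 9 with the wider window and 0 to 4 with a mouse left out (0 without control tumor 2 or 3 or HNF4G-KO + FOXA1-OE tumor 1, and 1 without HNF4G-KO + FOXA1-OE tumor 5). Over all genes, 495 of 44505 were called without the filter and 25 of 14343 with only the groups compared. Between HNF4G-KO + FOXA1-OE and FOXA1-OE (5), the count of neighbors was 0 with only the groups compared, 12 with the wider window and 3 to 7 with a mouse left out (3 without FOXA1-OE tumor 1). Over all genes, 86 of 14396 were called with only the groups compared and 571 of 14245 without FOXA1-OE tumor 1. How many genes were tested in the wider window is not given here, so its counts give no rate to set against all genes. HNF4G-KO metastases against tumors gave 0 to 1, with 1 called neighbor without HNF4G-KO metastasis 1. Other counts of neighbors stayed at 0 in all alternatives run. With the tumor number as a replicate block, which did not pair the samples, 8 neighbors were called between HNF4G-KO and control, 0 between HNF4G-KO + FOXA1-OE and control and 1 between HNF4G-KO + FOXA1-OE and FOXA1-OE; the mouse as a block left the counts of metastases at 0. Of 46 log2 differences of members, 8, all between -0.07 and 0.14, changed sign in an alternative, and 0 of the called neighbors did. With a pseudocount of 0.1, the HNF4G-KO to control difference was 4.95 for LINC03048 and -4.56 for LINC00922, since both are near 0 in a group. Apart from the settings that change the genes or samples by construction, the cause was not tested. LINC03048 had 2 to 17 reads and ENSG00000232524 0 to 22 in a tumor without the HNF4G-KO label, and LINC00922 had 0 to 73 in a tumor with it, which limits the precision of their ratios.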
